A study of Homo sapiens and Mus musculus with 213 samples.

Results

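MYC, PVT1 and CASC11 are 3 of the 58336 genes listed in the RNA-seq tables of this study, and they were chosen as MYC and the long noncoding RNA (lncRNA) genes that overlap or neighbour it. RNA-seq was made from 3 lines of HEK293T, an embryonic kidney cell line, with 3 libraries per line. MYC WT cells keep the natural G-quadruplex (G4) motif of the MYC promoter, in MYC MUT cells the G-runs of that motif were mutated so that it cannot fold, and in SWP cells the natural motif was replaced by another G4-forming motif. Both edits were made with CRISPR and the edited lines are homozygous clones, and the sources used here do not say which clones went into these libraries or how many. No drug or other treatment separates the lines, and all share the HEK293T background. The comparison of MYC MUT with MYC WT asks what loss of the G4 does to expression at the locus, and the SWP line asks whether a different G4-forming motif in the same place gives the natural level. As the edited lines are clones, an effect of the clone and one of the edit cannot be told apart in these comparisons.

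MYC encodes a transcription factor that drives growth and cell division, and its RNA and protein are short-lived, so its level follows the rate of transcription closely. A G4 is a fold of guanine-rich DNA in which quartets of guanines stack on each other, and the motif of the MYC promoter is among the best studied. PVT1 is a lncRNA gene downstream of MYC that is gained together with MYC in many tumours. It hosts several microRNAs, and its promoter can compete with that of MYC for enhancers. CASC11 is a lncRNA gene that runs away from MYC on the opposite strand.

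In the GENCODE v44 annotation of hg38, MYC (ENSG00000136997) lies on the plus strand of chromosome 8 from 127735434 to 127742951, with 15 transcripts. PVT1 (ENSG00000249859) lies on the same strand from 127794526 to 128187101, starts 51574 bases after the end of MYC and has 190 transcripts. CASC11 (ENSG00000249375) lies on the minus strand from 127686343 to 127738987, with 5 transcripts. A stretch of G-runs in the MYC promoter was found with a search for 5 runs of at least 3 guanines, 1 to 7 bases apart. It lies on the minus strand from 127735923 to 127735964, 42 bases with 7 such runs. This stretch is the output of the search. The edited site whose coordinates the authors give lies within it, and they describe the full edited element as longer and with more G-runs. Of the MYC transcripts, 4 start before this stretch and 11 after it, the nearest 82 bases beyond its end. Transcripts that start on both sides of the motif add to the same MYC value, since the tables hold 1 value per gene. The range of 1 CASC11 transcript overlaps MYC, and the other CASC11 transcripts start at least 1466 bases before MYC. The exons of CASC11 and MYC share 194 bases. The libraries keep strand but the use of strand in the counting is not given in the sources used here, so reads on the shared bases may have been counted on either gene.

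**Figure D1:**
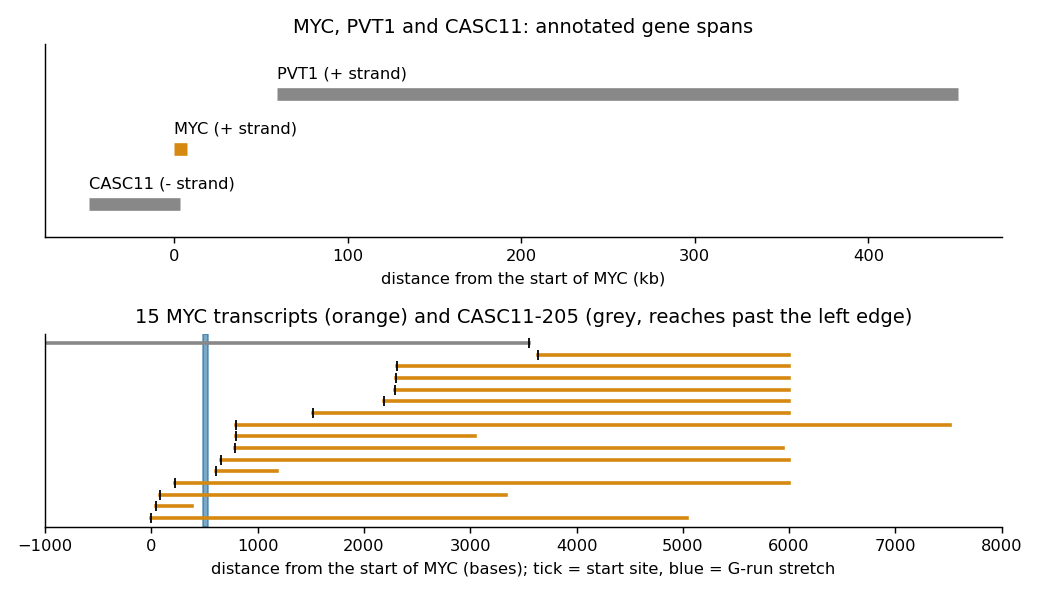
Upper panel: annotated spans of CASC11, MYC and PVT1 along chromosome 8, in kb from the start of MYC. Lower panel: the 15 MYC transcripts in orange and the overlapping CASC11 transcript in grey, in bases from the start of MYC, with a tick at each start site and the 42-base G-run stretch in blue; 4 MYC start sites lie to its left and 11 to its right.

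The libraries had 65024354 to 98497026 reads on genes. The line was checked with 8 genes that HEK293 cells express (VIM, KRT8, KRT18, NEFL, NEFM, INA, PAX2, LHX1), all of which were above 100 normalized counts in every library. Of 5 genes of other tissues, PTPRC, CD3E, ALB and PECAM1 stayed below 6 normalized counts, and MYOD1 had 20.3 to 70.6. Replicate 1 of MYC WT and replicate 1 of SWP stood apart from the other libraries of their lines, with a chi-square per degree of freedom of 38.4 to 55.6 against the others of the line, where the remaining pairs of all lines had 8.32 to 24.5. Where leaving out one of them ends a call, turns a direction or moves a fold change or ratio of the 3 genes, or the median of a gene list, by over 1.5 times, the value without it is given. A sequencing pool is named in the columns of MYC WT and not in those of MYC MUT and SWP, so pool and edit cannot be told apart in a comparison with MYC WT. The names do not separate SWP from MYC MUT.

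MYC RNA was lower in MYC MUT than in both other lines, and SWP overlapped MYC WT. Normalized counts in MYC WT were 20020, 28396 and 21580, where a normalized count is the number of reads on the gene divided by the size factor of the library. The MYC MUT libraries had 10693, 11176 and 12400, and the SWP libraries 14480, 24743 and 25245. All MYC MUT values were below those of MYC WT and of SWP, and the SWP and MYC WT libraries overlapped. The mean was 23332 ± 4454 (SD, n = 3) in MYC WT, 11423 ± 880 (SD, n = 3) in MYC MUT and 21489 ± 6075 (SD, n = 3) in SWP. MYC MUT thus held 49.0% of the MYC WT mean and SWP 92.1%. The spread among libraries was 28.3% of the mean in SWP, 19.1% in MYC WT and 7.70% in MYC MUT. The wide spread of SWP came from replicate 1, which had 62.1% of the MYC WT mean, while the other SWP libraries had 106% and 108%. Replicate 1 was also the lowest MYC library of MYC WT and of MYC MUT.

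The log2 fold change of MYC in MYC MUT against MYC WT was -1.02 (95% confidence interval -1.44 to -0.59, standard error 0.19, limma adjusted p = 0.00182 over the 20884 genes tested). For SWP against MYC MUT it was 0.87 (0.44 to 1.30, standard error 0.19, limma adjusted p = 0.00454). A gene was called changed when its adjusted p was under 0.05 and its log2 fold change beyond 0.5 in either direction, and MYC passed in both comparisons. Of all tested genes 21.4% were called in MYC MUT against MYC WT, 10.1% lower and 11.3% higher, and 20.6% in SWP against MYC MUT, 12.3% lower and 8.31% higher, so a call as such is common in both. SWP against MYC WT gave -0.15 for MYC (-0.57 to 0.28, standard error 0.19, limma adjusted p = 0.712), and MYC was not among the 5.13% of genes called there (2.98% lower, 2.15% higher). The interval leaves room for a SWP level up to 0.57 below or 0.28 above MYC WT on the log2 scale. Since these are bulk libraries, a lower MYC value may be less RNA in each cell or fewer cells with much MYC RNA, and the measurement cannot tell these apart.

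Without MYC WT replicate 1 the log2 fold change of MYC in SWP against MYC WT was -0.25 (limma adjusted p = 0.491). Without SWP replicate 1, MYC in SWP was 0.12 above MYC WT on the log2 scale (limma adjusted p = 0.619) and 1.13 above MYC MUT (limma adjusted p = 3.0e-05). Without both SWP replicate 1 and MYC WT replicate 1 the values were 0.014 against MYC WT, 1.13 against MYC MUT and, for MYC MUT against MYC WT, -1.12 (limma adjusted p = 7.5e-07). The direction of SWP against MYC WT thus changed with the library left out, and the values for MYC MUT kept theirs. By exact two-sided permutation tests, MYC MUT against MYC WT and SWP against MYC MUT each had p = 0.1, the smallest value that 3 libraries against 3 allow, and SWP against MYC WT had p = 0.8. Groups that do not overlap were found for 52.3% of tested genes in MYC MUT against MYC WT, for 52.3% in SWP against MYC MUT and for 24.6% in SWP against MYC WT.

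Of the difference in mean MYC between MYC WT and MYC MUT, SWP regained 84.5%. Leaving out single libraries moved this share from 68.8% (without SWP replicate 3) to 114% (without SWP replicate 1). Within libraries of the same replicate number the share was 40.6%, 78.8% and 140%. The share is therefore known only roughly with 3 libraries per line. Against the MYC WT library of the same number, MYC MUT had 53.4%, 39.4% and 57.5% of its MYC count, and SWP had 72.3%, 87.1% and 117%.

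**Figure D2:**
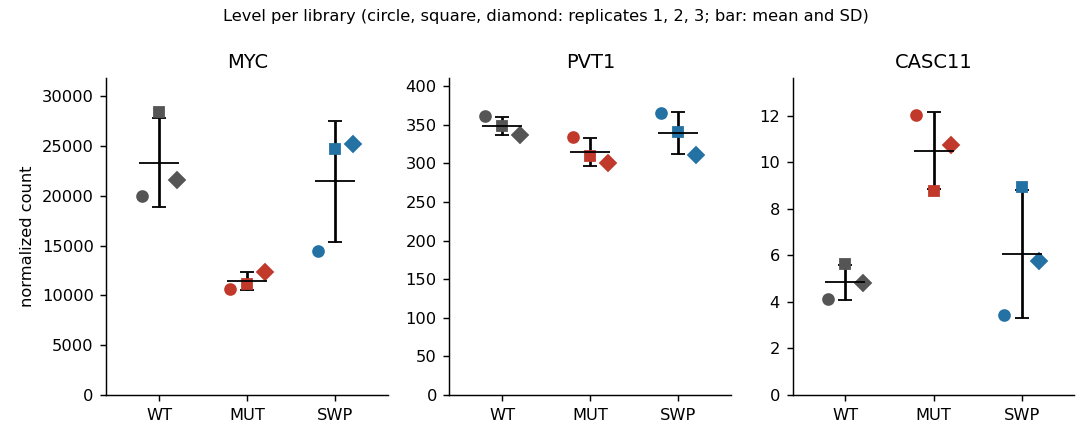
Normalized counts of MYC, PVT1 and CASC11 (vertical axes, each from 0) in the 3 lines, with 1 point per library (circle, square and diamond for replicates 1, 2 and 3) and the mean ± SD as a black bar. MYC in MYC MUT (10693 to 12400) lies below all other libraries, PVT1 differs little between lines, and CASC11 in MYC MUT (8.75 to 12.0) lies above all MYC WT libraries. Groups that do not overlap were found for 52.3% of the 20884 genes tested in MYC MUT against MYC WT, which leave out CASC11.

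PVT1 did not follow MYC in size. It had 361, 348 and 337 normalized counts in MYC WT, 335, 309 and 300 in MYC MUT, and 365, 340 and 311 in SWP. All MYC MUT libraries lay below all MYC WT libraries, by a narrow margin, and SWP overlapped both. Groups that do not overlap are common in MYC MUT against MYC WT, at 52.3% of tested genes. The means were 349 ± 12.0 in MYC WT, 315 ± 17.9 in MYC MUT and 339 ± 27.1 in SWP (SD, n = 3 each), so MYC MUT held 90.3% of the MYC WT mean and SWP 97.3%. PVT1 was not called in any comparison. Its log2 fold change was -0.15 in MYC MUT against MYC WT (-0.38 to 0.08, limma adjusted p = 0.281) and 0.11 in SWP against MYC MUT (-0.12 to 0.33, limma adjusted p = 0.448). For SWP against MYC WT it was -0.042 (-0.27 to 0.18, limma adjusted p = 0.856), with -0.017 without MYC WT replicate 1 and -0.098 without SWP replicate 1, and the sign of this small value turned when libraries were rescaled to equal totals (0.0069), with edgeR (0.0076), with DESeq2 (0.0074) and without SWP replicate 3 (0.017). Equal totals moved the value for MYC MUT against MYC WT to -0.074, and that for SWP against MYC MUT was 0.050 without SWP replicate 1 and 0.17 without SWP replicate 3. The interval for MYC MUT against MYC WT lies above the MYC estimate of -1.02, and a fall of PVT1 by more than 0.38 on the log2 scale is outside it.

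The unequal change of the 2 genes was also taken within each library. The log2 ratio of PVT1 to MYC normalized counts was -5.79, -6.35 and -6.00 in MYC WT, -4.99, -5.17 and -5.36 in MYC MUT, and -5.30, -6.18 and -6.34 in SWP. All MYC MUT ratios lay above all MYC WT ratios, while SWP replicate 1 lay within the MYC MUT range and the other SWP libraries in the MYC WT range. For each 1000 MYC counts there were 12.3 to 18.1 PVT1 counts in MYC WT, 24.3 to 31.4 in MYC MUT and 12.4 to 25.3 in SWP. MYC MUT differed from MYC WT by 0.87 in the log2 ratio and SWP from MYC MUT by -0.76, with p = 0.1 and p = 0.2 by exact permutation tests, and SWP from MYC WT by 0.10 (p = 0.8). That last value moved from -0.21 without SWP replicate 1 and -0.047 without MYC WT replicate 2 to 0.22 and 0.30 without SWP replicate 2 or 3 and 0.23 without MYC WT replicate 1.

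Per kilobase of annotated exon the 3 genes lay far apart. MYC had 3819 ± 729 (SD, n = 3) normalized counts per kb in MYC WT, 1870 ± 144 in MYC MUT and 3518 ± 994 in SWP. PVT1 had 13.7 ± 0.470, 12.4 ± 0.705 and 13.3 ± 1.06, and CASC11 0.941 ± 0.147, 2.04 ± 0.320 and 1.17 ± 0.534, in the same order of lines. The order MYC, PVT1, CASC11 held in every library, with no overlap between genes. By this level MYC stood at place 1153 in MYC WT among 36873 genes that have an annotated exon length and a read in at least 1 of the 9 libraries, at 2488 in MYC MUT and at 1244 in SWP. PVT1 stood near the middle in all lines, above 46.7% to 48.5% of these genes. Exon lengths are unions over all annotated transcripts of a gene, so levels per kb can be low estimates for a single isoform. This holds most for PVT1, whose exon length is a union over 190 transcripts.

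CASC11 was counted in every library but with few reads. MYC WT had 4, 5 and 5 reads, MYC MUT 13, 9 and 11, and SWP 3, 12 and 5. In normalized counts this was 4.10, 5.61 and 4.81 in MYC WT, 12.0, 8.75 and 10.7 in MYC MUT, and 3.44, 8.91 and 5.77 in SWP. The MYC MUT libraries were all above those of MYC WT, and SWP spanned from below MYC WT to within the MYC MUT range. Groups that do not overlap were found for 52.3% of the 20884 genes tested in MYC MUT against MYC WT, which leave out CASC11. No such share was taken over genes as low as CASC11. Counting error alone is wide at this depth. The exact 95% Poisson interval of the 13 reads of MYC MUT replicate 1 runs from 6.92 to 22.2 reads, and that of the 5 reads of MYC WT replicate 2 from 1.62 to 11.7. The mean was 4.84 ± 0.756 (SD, n = 3) in MYC WT, 10.5 ± 1.65 (SD, n = 3) in MYC MUT and 6.04 ± 2.75 (SD, n = 3) in SWP, so MYC MUT held 217% of the MYC WT mean and SWP 125%.

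CASC11 had a mean under 10 normalized counts, too low for the main fit, and was tested in a fit over all 37215 genes with any count, where 13.5% of genes were called in MYC MUT against MYC WT, 3.03% in SWP against MYC WT and 13.3% in SWP against MYC MUT. Its log2 fold change was 0.97 in MYC MUT against MYC WT (0.13 to 1.82), which did not pass the adjusted test (limma adjusted p = 0.0997). It passed when only these 2 lines were fitted (limma adjusted p = 0.0300). With a pseudocount of 10 the adjusted p was 0.0289 by limma, but the log2 fold change was 0.46, under the limit of 0.5. Over the alternatives the limma, edgeR or DESeq2 adjusted p ran from 0.0289 to 0.193. SWP against MYC WT gave 0.20 (-0.64 to 1.04, limma adjusted p = 0.866) and SWP against MYC MUT -0.77 (-1.61 to 0.07, limma adjusted p = 0.197). Without SWP replicate 1 these values were 0.50 and -0.48, the first was 0.11 without MYC WT replicate 1 and -0.084 without SWP replicate 2, and none was called. In MYC MUT against MYC WT the CASC11 estimate thus had the opposite sign to that of MYC. Per kb of exon MYC had 4061 times as many normalized counts as CASC11 in MYC WT, 917 times in MYC MUT and 2998 times in SWP. These ratios are rough, since they rest on 14, 33 and 20 CASC11 reads per line, in the same order.

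**Figure D3:**
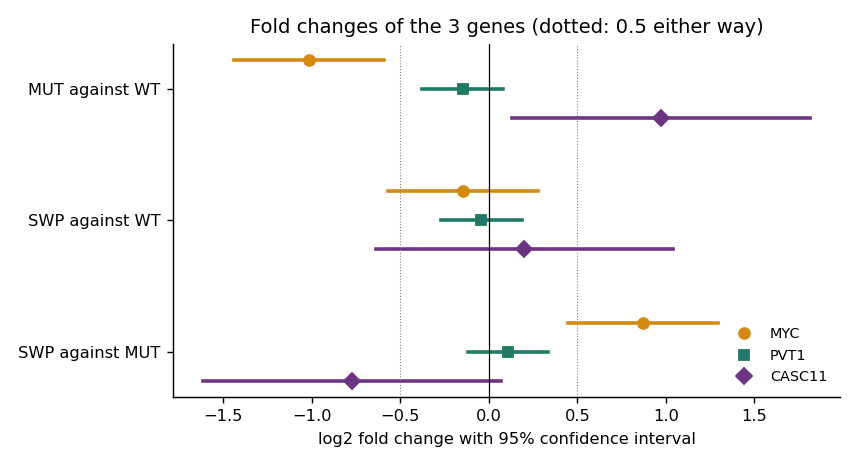
Log2 fold changes (horizontal axis) of MYC (circles), PVT1 (squares) and CASC11 (diamonds) in the 3 comparisons, with 95% confidence intervals from limma. Dotted lines mark 0.5 in either direction. MYC and PVT1 are from the main fit and CASC11 is from the fit over all genes with any count. The MYC interval lies below 0 in MYC MUT against MYC WT (-1.44 to -0.59) and above 0 in SWP against MYC MUT (0.44 to 1.30), and that of PVT1 spans 0 in all 3. The CASC11 interval lies above 0 in MYC MUT against MYC WT (0.13 to 1.82), though CASC11 was not called.

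The other genes annotated across PVT1 were nearly silent in these tables. MIR1204, MIR1205, MIR1206, MIR1207 and MIR1208, the microRNA genes hosted by PVT1, were all listed with no read in any library, as were LINC02912, RNU4-25P, ENSG00000278324 and ENSG00000278275. Poly(A)-selected libraries are not made to hold short microRNAs or their trimmed precursors. RNVU1-32, a small nuclear RNA gene inside PVT1, had 6 reads in MYC WT, 6 in MYC MUT and 11 in SWP, summed over the libraries of each line. The 26 annotated genes within 1 Mb of either end of MYC, members left out, include 22 that are listed, of which 16 had no read at all and 2 passed the minimum mean. These 2 were PCAT1, a lncRNA gene upstream of MYC, and the processed pseudogene ENSG00000224722. PCAT1 had means of 125 ± 12.5 in MYC WT, 128 ± 20.7 in MYC MUT and 116 ± 3.47 in SWP (SD, n = 3 each) and log2 fold changes of 0.03 and -0.09 against MYC WT (limma adjusted p = 0.893 and 0.766). ENSG00000224722 had 724 ± 100.4, 589 ± 73.7 and 690 ± 107 (SD, n = 3 each), with -0.29 in MYC MUT and -0.07 in SWP against MYC WT (limma adjusted p = 0.121 and 0.818), and as a processed copy it may share reads with its parent gene. POU5F1B, a retrogene of POU5F1 upstream of MYC that was singled out after its values were seen, had 10 reads in MYC WT, 1 in MYC MUT and 10 in SWP. It was under the minimum mean of the main fit, no test of it is given here, and reads may be shared with its parent.

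A wider view set MYC against its chromosome. Within 5 Mb of either end of MYC, 40 other genes were tested. Their median log2 fold change in MYC MUT against MYC WT was -0.26, against -0.0034 over all genes tested, and 28 of the 40 were below 0. Of them 8 were called lower and 3 higher, where 10.1% and 11.3% of all tested genes were, and without MYC WT replicate 1 these counts were 6 and 4. MYC lay 0.76 below the median of these genes, and 1 of the 40, ZNF572, was lower still, from 109 ± 21.9 to 3.19 ± 1.501 normalized counts (SD, n = 3 each). ZNF572, a zinc finger gene, was singled out after its values were seen. In SWP against MYC WT the median of the 40 genes was -0.025, with 3 called higher and 1 lower, and MYC lay 0.12 below it. Without MYC WT replicate 1, 1 of them was called higher and none lower there, and the median was 0.0042. Without SWP replicate 1, 3 were called higher and none lower, and the median was -0.050.

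The lower values reached beyond these 40 genes. Over the 460 tested genes of chromosome 8 that start from 50 Mb on, members left out, the median log2 fold change in MYC MUT against MYC WT was -0.39, 162 were called lower and 27 higher, and 76.5% were below 0. Over the 170 tested genes that start below 30 Mb, on the other side of the chromosome, the median was 0.33, with 10 called lower and 46 higher. These boundaries were set after the values along the chromosome were seen. The shift was alike in each library: relative to the MYC WT mean, the median gene from 50 Mb on stood at -0.38, -0.40 and -0.39 in the MYC MUT libraries and at -0.063, -0.054 and -0.060 in the SWP libraries. SWP against MYC WT had medians of -0.064 from 50 Mb on and -0.088 below 30 Mb, so the step was not seen there. Over whole chromosomes the median in MYC MUT ran from -0.22 on chromosome 10 to 0.26 on chromosome 20, with -0.14 on chromosome 8. MYC was 0.62 below the median of the genes from 50 Mb on, and 44 of these 460 genes were lower than MYC, while PVT1 at -0.15 was above that median. The part that the lower level of this side of chromosome 8 has in the MYC value of MYC MUT was not tested beyond these differences.

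The ratio of MYC to its surroundings was then taken per library, as the log2 normalized count of MYC minus the median log2 count of the 40 genes. It was 4.71, 5.28 and 4.89 in MYC WT, 4.03, 4.17 and 4.30 in MYC MUT, and 4.24, 4.72 and 4.72 in SWP. MYC MUT lay below MYC WT without overlap, and SWP replicate 1 lay within the MYC MUT range. MYC MUT differed from MYC WT by -0.79, which kept its sign in all alternatives (-0.92 to -0.63), with p = 0.1 by the exact permutation test. SWP differed from MYC WT by -0.40 (p = 0.3) and from MYC MUT by 0.39 (p = 0.2) by the same exact test. The first value ran from -0.53 to -0.24 over the alternatives, with -0.24 both without SWP replicate 1 and without MYC WT replicate 2, and the second from 0.31 to 0.55. The SWP value of -0.40 is larger than the 0.12 given above because here the median is of levels and there of fold changes, and the choice moves the value by more than the difference in MYC itself.

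**Figure D4:**
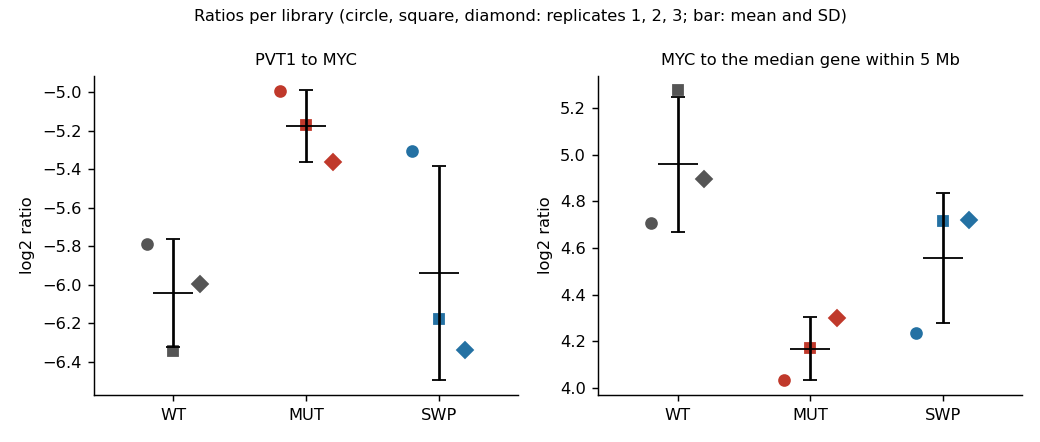
Log2 ratios per library (vertical axes) of PVT1 to MYC (left) and of MYC to the median gene within 5 Mb (right) in the 3 lines, with 1 point per library (circle, square and diamond for replicates 1, 2 and 3) and the mean ± SD as a black bar. The MYC MUT ratios of PVT1 to MYC (-5.36 to -4.99) all lie above those of MYC WT (-6.35 to -5.79), and SWP replicate 1 (-5.30) falls among the MYC MUT libraries.

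Factors known to act on MYC were examined as groups, and their calls are read beside the shares over all tested genes: 10.1% lower and 11.3% higher in MYC MUT against MYC WT, 2.98% and 2.15% in SWP against MYC WT, and 12.3% and 8.31% in SWP against MYC MUT. Of 26 regulators of MYC transcription, all tested, 1 was called higher and none lower in MYC MUT against MYC WT, none in SWP against MYC WT, and 1 higher and 1 lower in SWP against MYC MUT. The median log2 fold change of the group was -0.09, -0.02 and 0.08 in these comparisons, beside -0.0034, -0.055 and -0.044 over all genes. Without MYC WT replicate 1 the first was -0.044 and the second 0.014, and without SWP replicate 1 the second was -0.081. E2F1, a factor of the cell cycle that can bind the MYC promoter, rose from 5999 ± 235 to 8960 ± 79.0 normalized counts in MYC MUT (log2 fold change 0.58, limma adjusted p = 2.6e-05) and had 6025 ± 127 in SWP (SD, n = 3 each). Its log2 difference between SWP and MYC WT was 0.0067 (limma adjusted p = 0.962).

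Of 16 factors that bind or stabilise MYC mRNA, 1 was called lower in MYC MUT against MYC WT, none was called in SWP against MYC WT, and 2 were called higher in SWP against MYC MUT. One of these 2, AGO2, was not called without MYC MUT replicate 2 (log2 fold change 0.47). The medians of this group were -0.08, -0.05 and 0.0018, with -0.028 for the second without MYC WT replicate 1 and -0.083 and -0.030 for the second and the third without SWP replicate 1. YBX1, a binder of many mRNAs, fell from 42377 ± 3159 to 28113 ± 1630 normalized counts in MYC MUT (log2 fold change -0.59, limma adjusted p = 0.000156) and had 42506 ± 2641 in SWP (SD, n = 3 each). None of the 13 factors of MYC protein turnover was called in MYC MUT or SWP against MYC WT, with medians of -0.11 and -0.03, and 1 was called higher and 1 lower in SWP against MYC MUT. Without MYC WT replicate 1, 1 of these 13 was called higher in MYC MUT, and the median in SWP against MYC WT was 0.034. The median in SWP against MYC MUT was 0.093, or 0.060 without SWP replicate 1.

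Genes that MYC is known to act on were examined in the same way and beside the same shares. Of 20 genes known to be activated by MYC, 3 were called lower and none higher in MYC MUT against MYC WT, where 10.1% of all tested genes were lower, and 1 was called lower in SWP against MYC WT. The call in SWP against MYC MUT was 1 higher, with 1 lower in addition when SWP replicate 1 was left out. The higher one was FBL at 0.501 on the log2 scale, just past the limit, and it was not called at equal totals (0.48), at equal upper quartiles (0.496) or without MYC MUT replicate 1 (0.48), MYC MUT replicate 2 (0.48) or SWP replicate 3 (0.44). The medians were -0.19, -0.13 and 0.05. Without MYC WT replicate 1 the median in MYC MUT was -0.12, with 3 called lower and 1 higher, and that in SWP against MYC WT was -0.055. Without SWP replicate 1 the medians were -0.19 in SWP against MYC WT and -0.026 in SWP against MYC MUT. SRM, the spermidine synthase, in MYC MUT fell by 0.64 on the log2 scale (from 19853 ± 1590 to 12769 ± 979 normalized counts, limma adjusted p = 0.000590). FBL, the fibrillarin of the nucleolus, fell by 0.62 (from 44957 ± 1627 to 29359 ± 1370, limma adjusted p = 7.7e-05), and its log2 fold change in SWP against MYC WT was -0.11 (limma adjusted p = 0.384).

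TERT, the catalytic subunit of telomerase, was the gene of this list called in both edited lines. It had 881 ± 62.4 normalized counts in MYC WT, 568 ± 28.7 in MYC MUT and 507 ± 31.6 in SWP (SD, n = 3 each). Its log2 fold change against MYC WT was -0.63 in MYC MUT (limma adjusted p = 0.000345) and -0.80 in SWP (limma adjusted p = 0.000286), while SWP and MYC MUT differed by -0.16 (limma adjusted p = 0.185). TERT was thus called lower in SWP, where MYC was not.

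Of 8 genes known to be repressed by MYC, 2 were called higher and 1 lower in MYC MUT against MYC WT, where 11.3% and 10.1% of all tested genes were, and 1 higher in SWP against MYC WT. SWP against MYC MUT had 1 called higher and 1 lower, or 2 lower without SWP replicate 1, and the medians of the 8 were 0.16, 0.02 and -0.23, with 0.075 for the second without MYC WT replicate 1 and 0.015 without SWP replicate 1. CDKN1A, the cell cycle inhibitor p21, rose from 3522 ± 865 to 8861 ± 986 normalized counts in MYC MUT (log2 fold change 1.35, limma adjusted p = 0.000198) and had 3504 ± 854 in SWP (SD, n = 3 each). CEBPA, a differentiation factor, rose by 0.64 in MYC MUT on the log2 scale (limma adjusted p = 0.000174). CDKN2B, another inhibitor of the cell cycle, fell from 1124 ± 31.8 to 498 ± 43.6 in MYC MUT (log2 fold change -1.18, limma adjusted p = 4.0e-06), against the direction that the list names, and had 1193 ± 63.0 in SWP. CDKN1B was the one called in SWP, at 6351 ± 251 against 4487 ± 487 in MYC WT (log2 fold change 0.51, limma adjusted p = 0.00223). CDKN1B had a log2 fold change between 0.44 and 0.50, just under the limit, without MYC WT replicate 1 or 2 or SWP replicate 1 or 2, and no gene of this list was called there without SWP replicate 1.

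The genes most like each member over the 9 libraries were found by Pearson's r of log2 values. They were sought among 16867 others (16868 for CASC11) with a mean of at least 50 normalized counts. For MYC they were PLCG2 (r = 0.993), KCNAB2 (0.993), HOMER2 (0.992), IDH2 (0.989) and the pseudogene RPS24P19 (0.989). PLCG2 had means of 1530, 998 and 1435 in MYC WT, MYC MUT and SWP. With 9 points in 3 lines that differ in many genes, high values are common, and 939 genes had r above 0.9 with MYC. For PVT1 the genes were MYSM1 (r = 0.981), the pseudogenes SUCLA2P3 (0.976) and HNRNPCP1 (0.958), FBXO3 (0.961) and SLC35G1 (0.958), with 65 genes above 0.9. For CASC11 they were IFI27L2 (r = 0.979), PURG (0.960), PRELID2 (0.959), CDKL2 (0.957) and NKILA (0.954), with 84 genes above 0.9, and here r rests on 3 to 13 reads per library. PURG is the one of these genes that lies on chromosome 8.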

How the data were processed

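RNA-seq of 9 HEK293T libraries was used, and the other samples of the 213 listed were not used here. The authors aligned poly(A)-selected, strand-specific reads to hg38 with bwa mem and deduplicated the mapped reads with Picard MarkDuplicates. They counted reads per gene on a GENCODE annotation and deposited, as a signal that is never negative, counts divided by DESeq2 size factors. The counting tool is not given in the sources used here. This aligner is not built for spliced reads, which can lower counts at exon junctions. Whole reads were recovered for 100% of values (within 0.001 reads), and GENCODE v44 matched 57754 of 58336 identifiers.

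The main test was limma 3.58.1 (R 4.3.3) on log2(normalized count + 1), all 9 libraries in one fit with a trend, over genes with a mean of at least 10, with Benjamini-Hochberg adjustment. Fold changes on this scale understate changes of low genes. Alternatives used edgeR 4.0.16 and DESeq2 1.42.0 on recovered reads, and scripts were tested on simulated data. The sample titles number the libraries of each line as biological replicates (Bio). How cultures or clones were arranged is not given in the sources used here. The p-values therefore measure the spread between libraries, and Poisson intervals cover counting error only. Deviations from line means in same-numbered libraries had correlations of 0.33, 0.15 and 0.049 for MYC MUT with MYC WT. For SWP with MYC WT they were 0.56, 0.40 and 0.10, and for SWP with MYC MUT 0.33, 0.24 and 0.23. The main fit and the exact tests left libraries unpaired in all comparisons, and a replicate block was an alternative. With the block, the interval of MYC was -0.42 to 0.13 in SWP against MYC WT (standard error 0.12). In SWP against MYC MUT it was 0.60 to 1.14.

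Members and lists were chosen with earlier results of these data known. Named were the members, genes overlapping them or within 1 Mb of MYC (mean of at least 10), up to 4 called genes of largest change per list in each comparison with MYC WT, and the 5 genes most like each member.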

Additional observations from a re-analysis of the deposited data

How the results depend on the processing

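Of 267 alternative values for the members, their ratios, the share regained by SWP and the counts of called genes, 256 were taken as kept. A member was kept with the same direction and the same side of the threshold. Counts were kept within 1.5 times, ratios within the pooled SD of the libraries, and the share within the SD of its same-number values. These last limits are wide, so the tally is a weak measure of stability. MYC kept its call in MYC MUT against MYC WT (-1.12 to -0.87) and in SWP against MYC MUT (0.73 to 1.13). In SWP against MYC WT, values with libraries left out ran from -0.29 to 0.12 for MYC (0.12 without SWP replicate 1, 0.0034 without MYC WT replicate 2, 0.014 without both libraries that stood apart), from -0.098 to 0.017 for PVT1, from -0.084 to 0.50 for CASC11 (the lowest without SWP replicate 2) and from -0.21 to 0.30 for the log2 ratio of PVT1 to MYC. PVT1 there was 0.0069 at equal totals, 0.0076 with edgeR and 0.0074 with DESeq2. CASC11 in MYC MUT against MYC WT passed when only these lines were fitted (0.97, limma adjusted p = 0.0300). The cause of these changes was not tested. CASC11 could be fitted only without the minimum mean, and its alternatives, the share regained by SWP and the joint removal of the libraries that stood apart were chosen after seeing the data. MYC MUT against MYC WT had 4476 called genes (2365 rises and 2111 falls, or 2880 and 1600 at equal totals), SWP against MYC WT had 1072 (450 rises and 622 falls, but 607 and 569 with DESeq2, 574 and 536 with edgeR and 556 and 525 at equal totals) and SWP against MYC MUT 4309, and these counts stayed within 1.5 times of these values. With the replicate block the counts were 4970, 1464 and 4773. The block left the calls of the 3 genes as they were (MYC in MYC MUT against MYC WT, limma adjusted p = 4.3e-05). The exact tests of ratios cannot pass 0.05 with 3 libraries per line, so they say nothing about stability. At 3 to 13 reads per library, CASC11 is limited by depth.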
